A study of Mus musculus with 8 samples.

Results

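Hal, Uroc1, Amdhd1, Ftcd, Sds, Sdsl, Gldc, Amt, Agxt and Agxt2 encode enzymes by which the liver breaks down histidine, serine and glycine, and they were chosen by name for that role. They are 10 of the 21878 genes in the count table, and all 10 passed the filter on low counts, which kept 14726 genes. Their transcripts were measured in liver RNA of C57BL/6 mice by sequencing of 8 libraries. These comprised 3 wild-type tumors (replicates 1, 2 and 3), 2 wild-type normal livers (2 and 3), 2 tumors of nfib-/- mice (2 and 3) and 1 normal liver of an nfib-/- mouse (3). The nfib-/- animals were Nfib f/f with Alb-Cre, a transgene whose albumin promoter directs recombination to hepatocytes. Liver cells in which that promoter was never active keep the gene. The labels give 14 to 16 days as the age for tumor and normal livers alike and name no agent by which the tumors arose, so whether the figure is the age at collection is uncertain. The nfib-/- libraries are called knockout below, as in the labels.

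The liver is a main site at which surplus amino acids are taken apart. Histidine is deaminated to urocanate and opened in successive steps to glutamate, and the last step hands a one-carbon unit to tetrahydrofolate. Serine can be deaminated to pyruvate for glucose synthesis, and glycine is split in mitochondria by the glycine cleavage system, which also loads folate. Glyoxylate, which is turned into oxalate when it is not removed, is converted to glycine by transaminases. Nfib encodes one of the nuclear factor I transcription factors.

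Total counts ran from 11912549 to 19965842 per library. Hepatocyte markers, among them albumin, were present in every library, with a sum over 10 genes of 106681 to 200402 counts per 1000000 of the library total (CPM) and no gene at 0. Nfib itself was not lower in the knockout libraries, at 78.3 to 88.0 CPM against 41.5 to 104 CPM in the wild-type libraries, and counts summed over a gene cannot show the loss of an exon. Wild-type tumor 2 stood apart, with the fetal liver gene Afp at 2112 CPM, against 543 CPM in wild-type tumor 1 and no more than 16.8 CPM in the rest. Knockout tumor 2 and knockout normal 3 held skeletal muscle transcripts, with a sum over 12 genes of 2360 and 782 CPM, against 1.49 to 117 CPM elsewhere. In RNA from whole tissue, fewer cells of a type and less RNA per cell cannot be told apart.

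No enzyme passed the test in any comparison, and the largest contrasts lay between single libraries. In wild-type tumor 2, Hal, Uroc1 and Sds were far below their level in every other library, while Amdhd1, Ftcd, Amt and Sdsl were not. The first 2 enzymes of histidine breakdown therefore stood apart from the last 2 in that tumor. Over both tissues 9 of the 10 enzymes had a higher fitted level in knockout than in wild-type libraries, with the highest values for Sds and Hal.

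The promoters of the 4 histidine enzymes are shown because their transcripts parted in pairs, Hal and Uroc1 from Amdhd1 and Ftcd, in 1 of the 8 libraries, wild-type tumor 2. Each run holds 250 bases before and 50 bases after the start site, 5′ to 3′ on the strand of the gene, from RefSeq on GRCm38.p6. Capitals mark a CCAAT box, searched as CCAAT or ATTGG, or a nuclear factor I core motif, searched as TTGGC or GCCAA. The regions are chr10:93488518-93488817 (plus strand) for Hal, chr6:90333039-90333338 (plus) for Uroc1, chr10:93539984-93540283 (minus) for Amdhd1 and chr10:76575398-76575697 (plus) for Ftcd.
Hal: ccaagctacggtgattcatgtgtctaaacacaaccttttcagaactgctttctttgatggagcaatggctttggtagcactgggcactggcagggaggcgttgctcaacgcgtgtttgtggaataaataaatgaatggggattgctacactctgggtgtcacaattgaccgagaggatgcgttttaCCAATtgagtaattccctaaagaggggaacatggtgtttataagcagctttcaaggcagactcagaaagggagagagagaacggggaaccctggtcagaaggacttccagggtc
Uroc1: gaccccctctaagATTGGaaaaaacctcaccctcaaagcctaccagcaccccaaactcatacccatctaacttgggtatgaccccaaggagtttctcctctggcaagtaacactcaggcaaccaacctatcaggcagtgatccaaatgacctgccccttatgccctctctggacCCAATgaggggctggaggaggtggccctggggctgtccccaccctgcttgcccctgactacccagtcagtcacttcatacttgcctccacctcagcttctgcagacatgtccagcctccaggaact
Amdhd1: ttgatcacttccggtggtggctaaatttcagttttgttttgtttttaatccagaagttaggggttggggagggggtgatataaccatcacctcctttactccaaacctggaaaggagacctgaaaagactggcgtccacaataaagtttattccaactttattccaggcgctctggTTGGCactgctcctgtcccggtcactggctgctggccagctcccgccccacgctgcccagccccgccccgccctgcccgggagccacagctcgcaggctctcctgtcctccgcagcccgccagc
Ftcd: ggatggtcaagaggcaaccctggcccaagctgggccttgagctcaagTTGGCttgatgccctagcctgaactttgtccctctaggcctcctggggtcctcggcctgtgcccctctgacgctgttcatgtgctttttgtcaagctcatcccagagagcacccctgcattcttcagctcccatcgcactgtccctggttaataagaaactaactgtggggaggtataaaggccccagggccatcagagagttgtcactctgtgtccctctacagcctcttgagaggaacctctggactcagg

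The Hal and Uroc1 promoters held CCAAT boxes, 1 and 2 of them, and no core motif, while the Amdhd1 and Ftcd promoters each held 1 core motif and no CCAAT box. The Hal box began 64 bases before the start site and the nearer Uroc1 box 76 bases before it. The core motif of Amdhd1 began 74 bases and that of Ftcd 203 bases before the start site. Among 32851 promoters of this length, 46.7% held a core motif and 37.4% a CCAAT box, and the run GCCAAT or ATTGGC, in which both overlap, occurred in 14.7%. Of the other enzymes, Gldc held such an overlapping run, Amt held 1 CCAAT box, and the windows of Agxt and Agxt2 held neither motif. In wild-type tumor 2, Amt stood at its highest level, and Gldc and Agxt2 stood at their lowest. The division of motifs among the histidine enzymes thus did not extend to Amt and Agxt2. The full palindrome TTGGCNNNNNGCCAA was in 12 of the 32851 promoters and in none of the 8 enzymes with a promoter in the table. These are matches of letters in a window and say nothing of binding.

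Hal encodes histidine ammonia lyase, which starts the pathway, and spans chr10:93488768-93519304 on the plus strand of GRCm38. It stood at 136, 39.9 and 292 CPM in wild-type tumors 1, 2 and 3 and at 444 and 305 CPM in wild-type normals 2 and 3. In knockout tumors 2 and 3 it stood at 491 and 388 CPM, and in knockout normal 3 at 395 CPM. The 3 wild-type tumors were the lowest libraries for Hal, and the knockout libraries overlapped the wild-type ones only through wild-type normal 2. The mean was 156 ± 127 CPM (SD, n = 3) in wild-type tumors and 439 ± 73.2 CPM (SD, n = 2) in knockout tumors.

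Uroc1, at chr6:90333284-90364551 on the plus strand, encodes urocanase, the next enzyme. Its values were 317, 133 and 591 CPM in wild-type tumors 1, 2 and 3, 489 and 601 CPM in wild-type normals 2 and 3, 615 and 639 CPM in knockout tumors 2 and 3, and 613 CPM in knockout normal 3. The 3 knockout libraries lay within a narrow range, 623 ± 14.6 CPM (SD, n = 3), just above the highest wild-type library. With TMM scaling, which adjusts library totals for composition, wild-type normal 3 lay between them.

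Amdhd1 encodes imidazolonepropionase, the enzyme after urocanase, and lies at chr10:93523338-93540033 on the minus strand. Hal and Amdhd1 are neighbours that face each other, with 4033 bases between their ends and 0 annotated genes in the gap. Amdhd1 stood at 134, 260 and 254 CPM in wild-type tumors 1, 2 and 3, at 360 and 274 CPM in wild-type normals 2 and 3, at 360 and 234 CPM in knockout tumors 2 and 3, and at 250 CPM in knockout normal 3. Only wild-type tumor 1 was low, and the groups overlapped.

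Ftcd, at chr10:76575648-76590338 on the plus strand, encodes formimidoyltransferase cyclodeaminase, which passes the one-carbon unit to folate. It was the steadiest of the 4, with 250, 451 and 383 CPM in wild-type tumors 1, 2 and 3 and 484 and 349 CPM in wild-type normals 2 and 3. Knockout tumors 2 and 3 held 439 and 411 CPM and knockout normal 3 held 394 CPM. As with Amdhd1, wild-type tumor 1 was the lowest library and wild-type tumor 2 was not low.

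Per length, on the FPKM scale of the authors, the level of Hal over that of Amdhd1 was 0.139 in wild-type tumor 2 and 0.922 to 1.50 in the other 7 libraries. The level of Uroc1 over that of Ftcd was 0.229 in wild-type tumor 2 and 0.786 to 1.34 elsewhere. In wild-type tumor 1, where all 4 levels were low, the first ratio was 0.922, the lowest apart from wild-type tumor 2, and the second was 0.989, within the range of the other libraries. The knockout libraries had the 3 highest Hal to Amdhd1 ratios, 1.24 to 1.50. The first 2 transcripts were thus low relative to the last 2 in wild-type tumor 2.

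**Figure D1:**
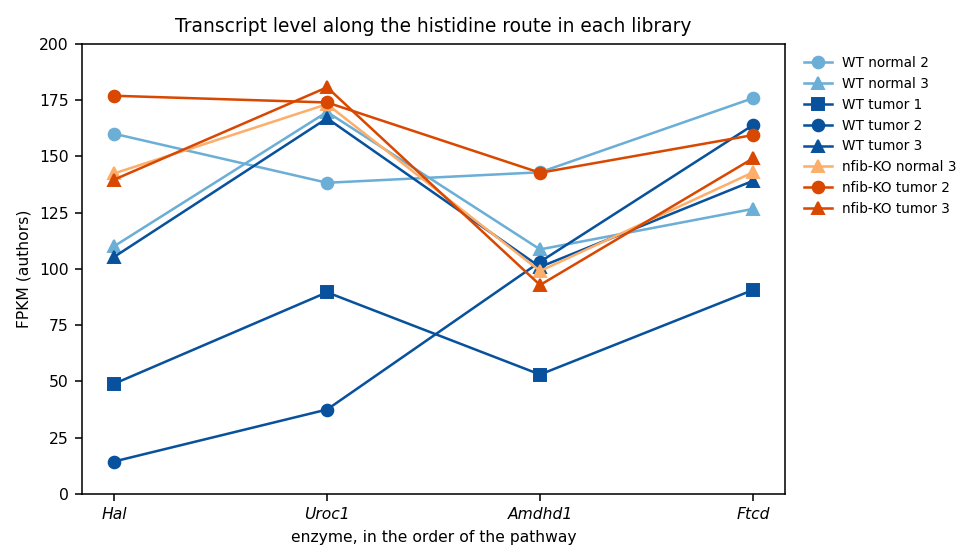
FPKM of the 4 histidine enzymes in the order of the pathway, 1 line per library, with blue for wild type, orange for knockout, light shades for normal liver, and squares, circles and triangles for replicates 1, 2 and 3. The line of wild-type tumor 2 starts at 14.4 FPKM for Hal and 37.5 FPKM for Uroc1 and joins the other libraries at Amdhd1 and Ftcd, while that of wild-type tumor 1 is low throughout.

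Sds encodes serine dehydratase, which turns serine and threonine into keto acids for glucose synthesis and is known from periportal hepatocytes. It stood at 274, 20.2 and 384 CPM in wild-type tumors 1, 2 and 3 and at 502 and 397 CPM in wild-type normals 2 and 3. Knockout tumors 2 and 3 held 351 and 832 CPM and knockout normal 3 held 825 CPM. It had the widest range of the 10 enzymes, 41.2-fold between wild-type tumor 2 and knockout tumor 3. Both knockout libraries numbered 3 lay above all others, whereas knockout tumor 2 lay within the wild-type range. Neutrophil transcripts moved with this split, with a sum over 8 genes of 281 and 254 CPM in knockout tumor 3 and knockout normal 3 and 19.7 to 49.2 CPM elsewhere, and their part in the result was not tested.

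Sdsl, a serine dehydratase-like gene, is the neighbour of Sds on chromosome 5. The 2 genes point away from each other, with 3715 bases between their start sites and 0 genes in the gap. Sdsl lies at chr5:120458186-120472810 on the minus strand and Sds at chr5:120476526-120483932 on the plus strand. Sdsl, the lowest of the 10 enzymes per length, stood at 9.03, 13.3 and 12.8 CPM in wild-type tumors 1, 2 and 3, 17.4 and 13.2 CPM in wild-type normals 2 and 3, 10.04 and 16.9 CPM in knockout tumors 2 and 3, and 15.4 CPM in knockout normal 3. It was not low in wild-type tumor 2. The FPKM level of Sds over that of Sdsl was 1.54 in wild-type tumor 2, 29.4 to 35.6 in 5 libraries, and 50.2 and 54.7 in knockout tumor 3 and knockout normal 3. Sds overlaps Plbd2 and the antisense gene Gm15690 on the other strand, and how the counting used strand is not given in the sources used here. Plbd2 stood at 78.1 to 109 CPM and was at 92.1 CPM in wild-type tumor 2.

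The enzymes of serine synthesis, the route in the other direction, were highest in the 2 libraries in which Sds was lowest. Phgdh, its first enzyme, stood at 31.5 and 38.7 CPM in wild-type tumors 1 and 2 and at 1.66 to 4.30 CPM elsewhere. Psat1, the transaminase of the route, stood at 56.8 and 158 CPM in those tumors and at 1.83 to 7.16 CPM elsewhere, and the phosphatase Psph at 18.3 and 26.6 CPM against 4.20 to 7.68 CPM. Wild-type tumor 3 was not among the high libraries for any of the 3 genes. None of the 3 passed the test. The fitted log2 difference of knockout from wild-type tumors was -3.75 ± 1.56 (SE) for Psat1 and -2.91 ± 1.20 for Phgdh, each with an adjusted p of 0.888 in edgeR.

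**Figure D2:**
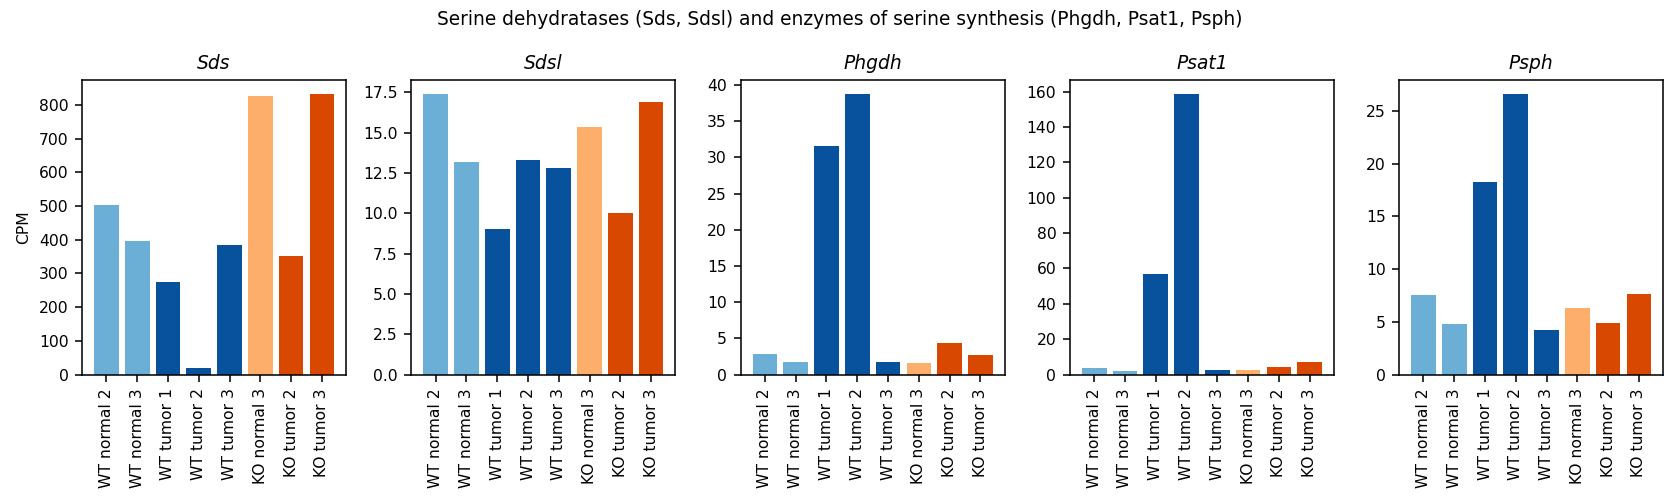
CPM of the serine dehydratases Sds and Sdsl and of the serine synthesis enzymes Phgdh, Psat1 and Psph in each library, as bars from 0 with blue for wild type, orange for knockout and light shades for normal liver. Sds is at 20.2 CPM in wild-type tumor 2, where Psat1 reaches 158 CPM, and at 825 and 832 CPM in the knockout libraries numbered 3.

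Gldc and Amt encode the decarboxylase and the aminomethyltransferase of the glycine cleavage system. Gldc, at chr19:30098447-30175429 on the minus strand, stood at 89.1, 69.4 and 169 CPM in wild-type tumors 1, 2 and 3, 132 and 170 CPM in wild-type normals 2 and 3, 165 and 151 CPM in knockout tumors 2 and 3, and 127 CPM in knockout normal 3. Wild-type tumors 1 and 2 were the lowest, and wild-type tumor 3 was level with the highest library. A processed pseudogene, Rpl31-ps20, overlaps Gldc on the other strand. Amt, at chr9:108296853-108302302 on the plus strand, stood at 39.9, 60.4 and 57.4 CPM in wild-type tumors 1, 2 and 3, 40.1 and 59.4 CPM in wild-type normals 2 and 3, 56.5 and 38.8 CPM in knockout tumors 2 and 3, and 37.4 CPM in knockout normal 3. Its values fell into no order by genotype or tissue, and wild-type tumor 2 was its highest library. The 2 subunits therefore did not keep 1 ratio, and Gldc over Amt in FPKM was 0.617 in wild-type tumor 2 and 1.20 to 2.09 elsewhere. The other subunits, Gcsh and Dld, spanned 76.1 to 124 CPM and 75.5 to 124 CPM, both with the lowest value in wild-type tumor 2.

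Agxt encodes the peroxisomal transaminase that turns glyoxylate into glycine, whose loss in humans causes primary hyperoxaluria. It lies at chr1:93135240-93145421 on the plus strand and stood at 227, 181 and 445 CPM in wild-type tumors 1, 2 and 3, 229 and 425 CPM in wild-type normals 2 and 3, 457 and 320 CPM in knockout tumors 2 and 3, and 307 CPM in knockout normal 3. The lowest 3 libraries were wild-type tumors 1 and 2 and wild-type normal 2, so tumor and normal livers were mixed at the low end. Shmt1, the cytosolic enzyme that interconverts serine and glycine, stood at 71.7 CPM in wild-type tumor 2 and 85.8 CPM in wild-type normal 2, and at 132 to 188 CPM elsewhere, and it is named here after its values were seen.

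Agxt2, at chr15:10358532-10410153 on the plus strand, encodes a mitochondrial transaminase that also uses glyoxylate and breaks down dimethylarginines and beta-aminoisobutyrate. It stood at 107, 68.7 and 126 CPM in wild-type tumors 1, 2 and 3, 138 and 103 CPM in wild-type normals 2 and 3, 144 and 159 CPM in knockout tumors 2 and 3, and 146 CPM in knockout normal 3. The knockout libraries lay above every wild-type library, and did so with TMM scaling too. Mean Agxt2 was 150 ± 8.17 CPM (SD, n = 3) with the knockout label and 108 ± 26.4 CPM (SD, n = 5) with the wild-type label. Agxt2 is also expressed in kidney, and 8 kidney tubule markers summed to 0 to 3.69 CPM, with 4 to 8 of them at 0 in each library. It overlaps Gm21973 on the same strand in the annotation, so its count may include reads of that gene.

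**Figure D3:**
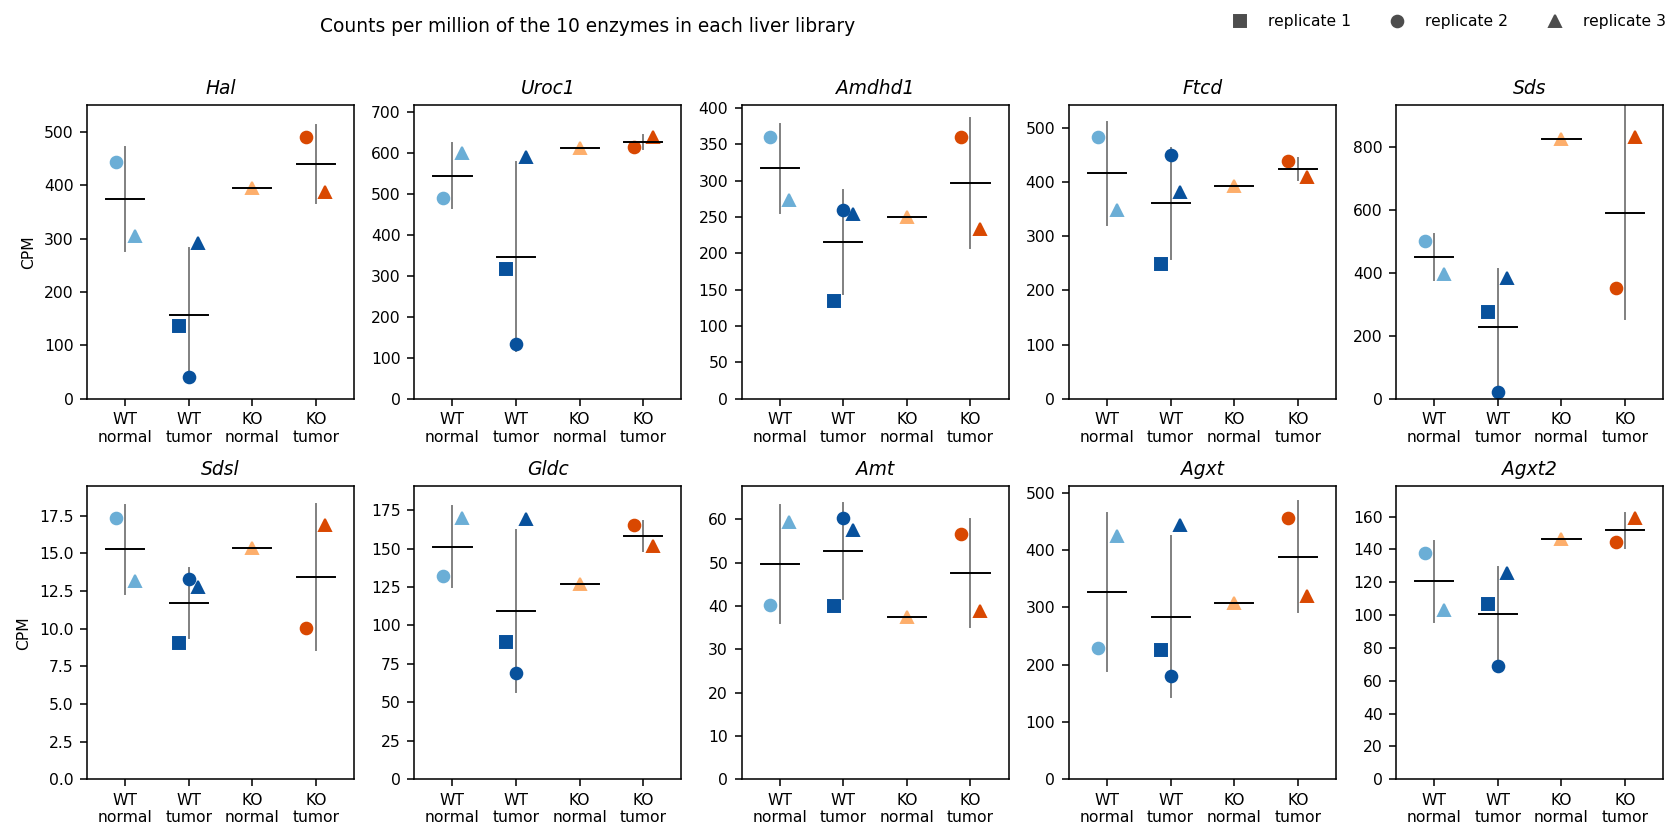
CPM of each enzyme in the 4 groups, 1 point per library shaped by replicate number, with a black line at the group mean and a grey bar of 1 SD either way where a group has 2 or 3 libraries (knockout normal liver is 1 library). All vertical axes start at 0. The knockout points sit above all wild-type points for Uroc1 (613 to 639 CPM, a gap that TMM scaling removes) and Agxt2 (144 to 159 CPM).

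Per length, the means over the 8 libraries put the enzymes in the order Sds (305 ± 186 FPKM, SD, n = 8), Agxt (209 ± 69.5), Ftcd (143 ± 26.3), Uroc1 (141 ± 51.5), Hal (112 ± 55.8), Amdhd1 (105 ± 28.7), Agxt2 (53.8 ± 12.8), Gldc (35.4 ± 10.002), Amt (24.0 ± 5.14) and Sdsl (9.01 ± 1.996). Neighbours in this order differed by less than the larger of their SDs, apart from the steps from Amdhd1 to Agxt2, from Agxt2 to Gldc, from Gldc to Amt and from Amt to Sdsl. The enzymes differed widely in spread, with a coefficient of variation of 60.9% for Sds and 49.7% for Hal and of 18.4% for Ftcd.

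Relative to its own mean over the 8 libraries, on the log2 scale with TMM, no enzyme was above its mean in wild-type tumor 1, where the deviations ran from -0.86 for Amdhd1 to -0.09 for Agxt2. In wild-type tumor 2 they ran from -3.82 for Sds and -2.50 for Hal to 0.49 for Amt, and 4 enzymes were above their mean. That library was the lowest of the 8 for 5 of the 10 enzymes (Hal, Uroc1, Sds, Gldc and Agxt2), and it was the lowest for 30.2% of all tested genes. In the knockout libraries 8 or 9 of the 10 enzymes were above their mean. The count was 8 in wild-type normal 3, 6 in wild-type tumor 3 and 5 in wild-type normal 2, so it did not set the knockout libraries apart.

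**Figure D4:**
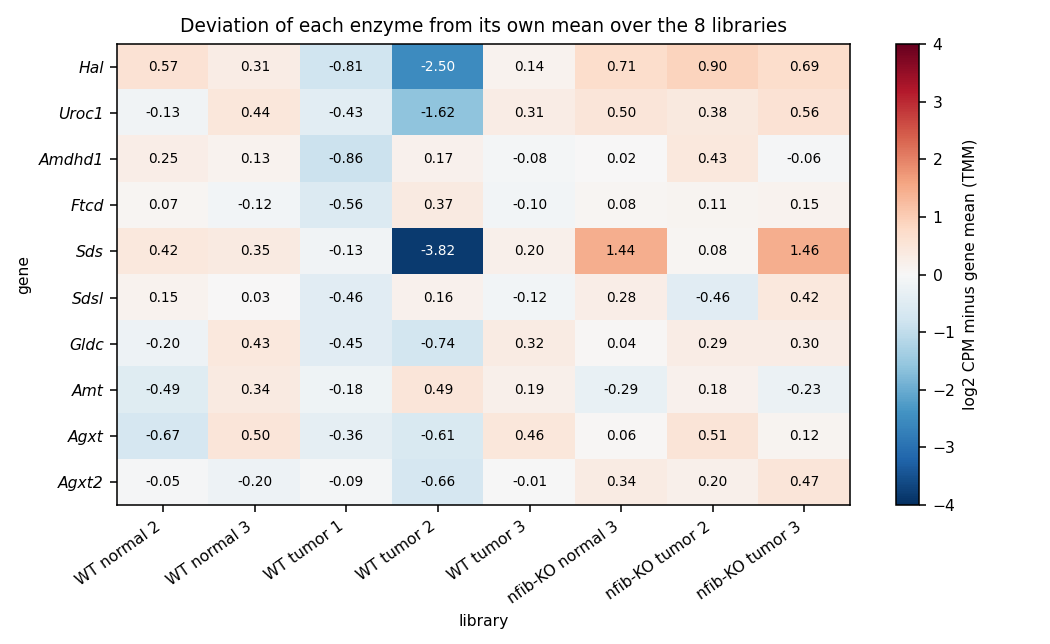
Deviation of each enzyme (rows) from its own mean over the 8 libraries (columns), in log2 CPM with TMM scaling, with red above and blue below the mean and the value in each cell. The deepest values are those of Sds (-3.82), Hal (-2.50) and Uroc1 (-1.62) in wild-type tumor 2.

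The position of hepatocytes along the lobule is a known source of difference for Sds and Hal, which are higher near the portal tract. The other 6 periportal markers summed to 1913 CPM in wild-type tumor 2, 6053 CPM in wild-type tumor 1 and 10335 to 12119 CPM in the other 6 libraries. Of these 6 markers, 4 were lowest in wild-type tumor 2, 1 in wild-type tumor 3 and 1 in wild-type normal 2. The 8 pericentral markers were all lowest in wild-type tumor 2, with a sum of 131 CPM against 3244 to 9500 CPM elsewhere. Markers of both ends of the lobule thus had their lowest sum in that tumor, none of these markers was at 0 in any library, and their part in the result was not tested. Hal is also expressed in epidermis, and 12 squamous markers summed to 530 CPM in knockout tumor 2, the library with the highest Hal, against 2.97 to 5.51 CPM in the other 7, and their part in the value was not tested. Hal stood at 388 and 395 CPM in the other 2 knockout libraries.

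The comparison of knockout with wild-type livers over both tissues asks which transcripts depend on genotype when tissue is taken into account. No enzyme passed at an adjusted p under 0.05 in edgeR (background 0% of 14726 genes, 1009 of which had an unadjusted p under 0.05). DESeq2 called 45 genes and 0 of the enzymes, and limma on FPKM called 0 genes in this and the other 3 comparisons. Agxt2 had the smallest p of the 10, with a log2 fold change of 0.53 ± 0.18 (SE, n = 3 and 5), an unadjusted p of 0.0214 and an adjusted p of 0.705 in edgeR, and it was higher in 3 of 3 knockout libraries. Sds was at 1.29 ± 0.74, Hal at 1.09 ± 0.55 and Uroc1 at 0.67 ± 0.41, with adjusted p of 0.719, 0.714 and 0.730 in edgeR.

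The remaining enzymes were close to 0 in that comparison relative to their error. The log2 fold changes were 0.30 ± 0.29 (SE) for Gldc, 0.29 ± 0.36 for Agxt, 0.20 ± 0.28 for Amdhd1, 0.17 ± 0.23 for Sdsl, 0.15 ± 0.24 for Ftcd and -0.23 ± 0.24 for Amt. The median of the 10 was 0.29, beside -0.02 over all tested genes, of which 47.2% were higher in knockout. It was 0.20 to 0.51 when each library was left out in turn, with 0.51 without wild-type tumor 3, 0.46 without wild-type normal 3 and 0.45 without knockout normal 3. Without the 2 libraries rich in muscle transcripts, knockout tumor 2 and knockout normal 3, the median was 0.52. That fit had knockout tumor 3 as its only knockout library, so it cannot separate genotype from that library. Without wild-type tumor 2, Sds was at 0.94, Hal at 0.74, Uroc1 at 0.41 and Agxt2 at 0.41, and without knockout tumor 3 Sds was at 0.80.

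For 2 of the 10 enzymes, Uroc1 and Agxt2, the lowest knockout library was above the highest wild-type library, against a background of 2.76% of all tested genes. With TMM scaling the count was again 2, Hal and Agxt2, with a background of 3.46%. Agxt2 met this under both scalings.

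Knockout and wild-type tumors were compared because tumor is the only tissue with at least 2 libraries of each genotype. No enzyme passed in edgeR (background 0%, with 430 genes at an unadjusted p under 0.05), and DESeq2 called 4 genes and 0 enzymes. Hal was at 1.50 ± 0.67 (SE, n = 2 and 3) on the log2 scale, Sds at 1.42 ± 0.996, Uroc1 at 0.86 ± 0.54, Agxt2 at 0.57 ± 0.25 and Gldc at 0.52 ± 0.36, each with an adjusted p of 0.888 in edgeR. Amt was the only enzyme below 0, at -0.21 ± 0.32. Hal, Uroc1 and Agxt2, 3 of the 10, were higher in both knockout tumors than in all wild-type tumors, against 9.65% of all tested genes. The same 3 did so with TMM scaling, with a background of 9.75%. Without wild-type tumor 2, Hal was at 1.03, Sds at 0.86, Uroc1 at 0.47, Agxt2 at 0.37, Gldc at 0.29 and Amt at -0.056. Without wild-type tumor 3, Uroc1 was at 1.38 and Gldc at 0.89, and without knockout tumor 3, Sds was at 0.54 and Amt at -0.034. Amt was at -0.37 without wild-type tumor 1 and -0.42 without knockout tumor 2. This comparison shares its libraries with that over both tissues.

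Tumor was set against normal liver over both genotypes. No enzyme passed in edgeR (background 0%, with 259 genes at an unadjusted p under 0.05), and DESeq2 called 7 genes and 0 enzymes. The enzymes at the ends were Sds at -0.75 ± 0.75 (SE, n = 5 and 3), Hal at -0.74 ± 0.55, and Amt at 0.23 ± 0.24. Of the 10, 7 had a lower fitted level in tumor and the median was -0.17, beside 0.01 over all tested genes. Without wild-type tumor 2, Sds was at -0.40, Hal at -0.39 and Amt at 0.14. Hal was at -1.17 without wild-type tumor 3 and -1.13 without knockout normal 3, and Amt at 0.042 without wild-type normal 2 and 0.48 without wild-type normal 3. That median was -0.28 without knockout normal 3 and -0.08 without wild-type tumor 1. No enzyme separated the 5 tumors from the 3 normal livers, where 0.713% of all tested genes lay above and 0.862% below.

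The difference between the tumor effects of the 2 genotypes was tested in the same model, in which the single knockout normal liver was taken to vary as the other groups do. No enzyme and no other gene passed in edgeR (background 0%, with 47 genes at an unadjusted p under 0.05), and DESeq2 called 0. For Hal the difference was 1.24 ± 1.15 (SE) on the log2 scale, and for Sds 0.37 ± 1.70, with adjusted p of 0.9999 in edgeR for both. An effect of tumor that differs by genotype was thus not detected for these enzymes with 8 libraries.

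**Figure D5:**
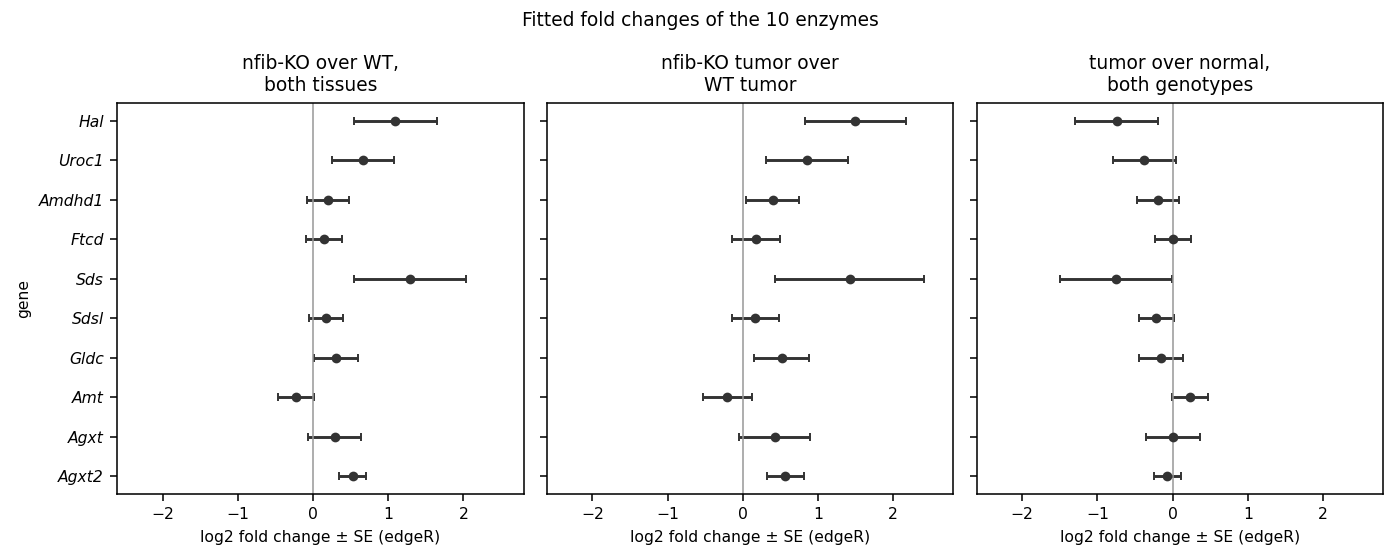
Fitted log2 fold change of each enzyme in 3 comparisons, with bars of 1 SE, from edgeR. Sds (1.29 and 1.42) and Hal (1.09 and 1.50) are farthest to the right for knockout over wild type, with the widest bars, and no enzyme passed an adjusted p of 0.05.

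Tumor and normal libraries of 1 genotype that carry the same number were also set side by side, as the authors did in their own tables. Whether they came from 1 animal is not given in the sources used here, and the tests above take all 8 libraries as independent. The number 3 pairs were the closest of all pairs of libraries, with a chi-square per gene of 7.95 in wild type and 12.9 in knockout, against at least 36.1 for any other pair. In wild-type number 3 the tumor minus normal difference of log2 CPM was between -0.21 and 0.18 for all 10 enzymes, and in knockout number 3 between -0.09 and 0.27. In wild-type number 2 it ran from -4.23 for Sds and -3.08 for Hal through -1.49 for Uroc1 to 0.98 for Amt. The 10 enzymes thus stood at nearly the same levels in tumor and normal liver in both number 3 pairs. In the number 2 pair 3 of them, Sds, Hal and Uroc1, differed by more than 1 log2 unit. Sdsl (0.011), Agxt (0.056) and Amdhd1 (-0.076) stood at nearly the same levels there too.

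The authors' deposited table of wild-type tumor 2 over wild-type normal 2 lists 2 of the enzymes among 1001 genes. In that deposited table Hal has a ratio of 0.118 and a p of 0.0131, with an adjusted p of 0.395 given by the authors. Sds has a ratio of 0.0531, a p of 0.00138 and an adjusted p of 0.0878 there. The authors' deposited tables for the number 3 pairs list 270 genes for wild type and 317 for knockout, and none of the 10 enzymes. Each of these tables sets 1 library against 1 library.

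The wider pathways held 59 further genes, 55 of which were tested, and none passed in edgeR in any of these comparisons. For knockout against wild type 34 were higher and 21 lower, with a median of 0.15. On CPM, 9 of the 55 lay above without overlap, beside 2.76% of all tested genes, and 1 lay below, beside 442 of the 14726 genes. With TMM scaling 10 lay above, beside 3.46% of all tested genes, and 0 lay below. Glycine and sarcosine methylation and conjugation had 10 of 11 genes higher, led by Gnmt, which consumes glycine to make sarcosine, at 1.43 ± 0.64 (SE). Gatm was the lowest of that list, at -0.40 ± 0.59. Gnmt stood at 1228 to 1360 CPM in the knockout libraries and at 58.9 CPM in wild-type tumor 2, 406 CPM in wild-type tumor 1 and 710 to 782 CPM in the other wild-type libraries. The knockout libraries lay above all wild-type libraries without overlap.

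Of the folate genes, 10 of 16 had a higher fitted level in knockout. On CPM, 3 of the 16 lay above without overlap, beside 2.76% of all tested genes. Aldh1l1, which oxidises the one-carbon unit of cytosolic formyl-folate, stood at 1347 to 1403 CPM in knockout and 259 to 898 CPM in wild-type libraries, with a log2 fold change of 1.20 ± 0.31 (SE) and an adjusted p of 0.705 in edgeR. Its mitochondrial counterpart Aldh1l2 ran the other way, at 13.4 and 17.4 CPM in wild-type tumors 1 and 2 and at 0.355 to 1.43 CPM elsewhere. Those 2 tumors were also the high libraries for serine synthesis.

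Among the genes that use histidine elsewhere, Hnmt, which methylates histamine, was at 0.92 ± 0.51 (SE) and 3 of 6 genes were higher. Carns1 was the lowest of that list, at -0.43 ± 0.34. Of the carriers, 6 of 10 were higher, and Slc38a3, which carries histidine and glutamine, stood at 1594 to 2049 CPM in knockout and 875 to 1500 CPM in wild-type libraries, without overlap, at 0.55 ± 0.22 (SE) with an adjusted p of 0.705 in edgeR. Slc38a5 was the lowest carrier, at -2.08 ± 1.93 (SE), with no more than 2.10 CPM in any library. Slc6a9, a glycine carrier, was at -0.57 ± 0.30. It stood at 30.0 to 41.0 CPM in knockout and 43.5 to 85.4 CPM in wild-type libraries, which overlapped with TMM scaling. For glyoxylate, 2 of 5 genes were higher, and the median of the list was -0.12. Hoga1, which makes glyoxylate from hydroxyproline, was highest at 0.40 ± 0.14 (SE), and Ldha was lowest at -0.44 ± 0.29. Gcat and Srr, the tested genes of threonine and D-serine use, were higher by 0.39 ± 0.14 and 0.54 ± 0.24, and both lay above without overlap on CPM, Gcat with TMM scaling too and Srr not.

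Across the 8 libraries some enzymes varied alike, which is given as a description over libraries that share depth and composition. Hal and Uroc1 had a Pearson r of 0.94 on log2 CPM, which was 0.75 without wild-type tumor 2, and Uroc1 and Sds an r of 0.93, which was 0.63 without it. Amdhd1 and Ftcd had an r of 0.81, and 0.86 without it. Hal had an r of -0.10 with Ftcd and 0.26 with Amdhd1, and without wild-type tumor 2 these were 0.98 and 0.91, above its r with Uroc1. Gldc and Agxt had an r of 0.89, and 0.88 without it. The likeness of Hal, Uroc1 and Sds thus moved with wild-type tumor 2, and that of Gldc and Agxt did not.

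Of 12923 other genes with a mean of at least 1 CPM, those most like Hal over the 8 libraries were Mpdz (r = 0.991), Nfib (0.989) and Capn7 (0.988). Nfib had a Spearman rho of 0.83 with Hal, and its r was 0.951 without wild-type tumor 2. Those most like Sds were Khk (0.996), Saa4 (0.996) and Acsm3 (0.994), those most like Uroc1 were Bckdhb (0.994), Clcc1 (0.993) and Gcdh (0.992), and those most like Agxt2 were Cpq (0.979), Got1 (0.972) and Trmt2b (0.971). These are the top values of a search over all those genes, given as a description.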

How the data were processed

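Liver RNA was measured by stranded mRNA sequencing in 8 libraries of 4 groups. The deposited counts are raw counts per gene, and the deposited FPKM values were made by the authors with a formula that is not given in the sources used here. Per the submitters' processing notes the upstream steps involved Bowtie 0.12.2 and the builds mm8 and mm9. The deposited tables of single comparisons hold a ratio (fold change), its log2 value, a p-value and an adjusted p-value, made by the authors, for genes past their thresholds, and 1 such table was not used because its header names a library outside the series. A further 16 columns of values per library were not used.

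Counts were fitted in edgeR 4.0.16 (R 4.3.3) with TMM, a minimum count of 10 in its filter and a robust quasi-likelihood test, with Benjamini-Hochberg adjustment over 14726 genes and a threshold of 0.05. Genotype and tissue entered 1 model as additive terms, which gave the comparisons over both tissues and over both genotypes, and a model of 4 group means gave the other 2 comparisons. The SE is the size of the edgeR log2 fold change divided by the square root of the F statistic of its test. CPM values are counts over the library total. Alternatives were DESeq2 1.42.0, other scalings, no filter, limma 3.58.1 on log2(FPKM + 1), a replicate block and leaving out libraries. The tests were tried on simulated counts that gave all genes a common spread and held no outlying library. Those settings differ from the data, and no result here rests on them. No 2 libraries agreed within sampling noise. Whether replicates come from separate animals is not stated, so p-values measure the spread between these samples.

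The members, lists and alternatives were chosen with earlier results of these data known. The named genes include the 10 enzymes, the serine synthesis genes and the 3 genes most like an enzyme by Pearson r. Other pathway genes, apart from Shmt1, were named for the highest or lowest fitted change in a list or for no overlap between groups. Some genes without overlap between the genotypes were not described, among them Mthfd1, Sardh and Slc15a4, all higher in knockout. Gene positions are from GENCODE on GRCm38 and promoters from RefSeq on GRCm38.p6, neither of which is a build named for the files, and 8 of the 10 enzymes matched a promoter.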

Additional observations from a re-analysis of the deposited data

How the results depend on the processing

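None of the 10 enzymes was called in edgeR in any comparison or under any alternative run. DESeq2 called 45 genes for knockout against wild type, 7 for tumor against normal and 4 for knockout against wild-type tumors, where edgeR called 0. Leaving out each library in turn gave 0 to 2 called genes for knockout against wild type, the 2 without knockout tumor 2. Each result with a reversal was smaller than its SE in the reported fit. For knockout against wild type, leaving out each library gave log2 fold changes of -0.0064 to 0.38 for Amdhd1 and -0.084 to 0.38 for Sdsl, and for the tumors alone -0.036 to 0.41 for Ftcd and -0.36 to 0.54 for Sdsl. For tumor against normal they gave -0.21 to 0.42 for Agxt, -0.14 to 0.045 for Agxt2, -0.15 to 0.12 for Ftcd and -0.36 to 0.11 for Gldc. For the difference between tumor effects they gave -0.33 to 0.85 for Agxt, -0.11 to 0.24 for Agxt2, -0.43 to 0.43 for Amt, -0.15 to 0.30 for Ftcd, -0.52 to 0.90 for Sds and -0.56 to 0.35 for Sdsl. For tumor against normal, Ftcd was at -0.0032 with DESeq2, -0.0032 with RLE size factors, -0.095 with library totals and -0.11 with limma on FPKM, and Agxt at -0.017 with library totals and -0.045 with limma on FPKM. The difference for Sdsl was 0.19 with library totals and 0.14 with limma on FPKM. With the replicate block, Gldc was at 0.0085 for tumor against normal, Ftcd at -0.0077 and Sdsl at -0.012 for the tumors of the genotypes, and the differences for Ftcd and Amt were -0.21 and -0.066. The r of deviations from group means was 0.16 and 0.20 for tumor and normal of the same number in wild type and -0.11 to 0.25 across genotypes, and could not be had for the knockout pair, whose normal group is 1 library. In a group of 2 libraries the deviations mirror each other, so these r values cannot decide whether the numbers pair the libraries. The reported fits took the libraries as independent. The replicate block changed no count of called genes. The causes were not tested. The difference between tumor effects could not be fitted without knockout normal 3.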
